A study of Zea mays with 18 samples.

Results

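The calcium signalling transcripts described here are 5 transcripts of maize roots: the EF-hand transcripts GRMZM2G110080_T01 and GRMZM2G426046_T01, the calmodulin-binding family transcript GRMZM2G318843_T01, the calmodulin-binding transcription activator (CAMTA) GRMZM2G447551_T01 and the cation exchanger (CAX) GRMZM2G011592_T01. They were picked by name out of the 39372 transcripts of the array, because the study listed them as changed after 4 d of growth without N in at least 1 of its 2 inbred lines. The listing was for Lo5 in 3 of them, for T250 in the CAMTA transcript, and for both lines in the calmodulin-binding transcript. The levels at 4 d and 0 d therefore chose the members, and their changes over 4 d are given as a description, without a test.

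Calcium ions act as a second messenger in plant cells: a stimulus lets calcium into the cytosol for a short time, and proteins that bind it pass the signal on. Calmodulins and the calcineurin B-like proteins (CBL) hold calcium in EF-hand motifs and then bind other proteins, the CBLs mainly the CBL-interacting kinases (CIPK). CAMTA proteins bind both DNA and calmodulin and so connect calcium to transcription, while CAX exchangers move calcium out of the cytosol into the vacuole against protons. In Arabidopsis roots, CBL and CIPK proteins regulate the nitrate transporter NRT1.1.

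The 6 groups were roots of the inbred lines Lo5 (high N use efficiency) and T250 (low N use efficiency) after 0, 1 and 4 d in a nutrient solution without N. Both lines had germinated in the dark and had then stood in a calcium sulfate solution, so the 0 d plants had also received no N in solution. Each group had 3 replicates, which were 3 repeats of the growth experiment, each with the pooled roots of 3 seedlings. No array of plants kept on N is part of the series, so time without N and growth cannot be told apart. In whole roots, fewer cells of a type and less RNA per cell cannot be told apart either.

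Every sample was labelled with 1 dye and hybridized on its own array. A level is the log2 of the spot's processed intensity minus the log2 of the array's 75th percentile, so levels compare between arrays but not between probes. No spot was saturated, and each array had 28868 to 32446 probes well above its background. The scanner software marked 4.12% to 12.3% of the spots as non-uniform or as outliers. Marked spots were left out of the fit. The root hair gene rth3 was well above background on all 18 arrays, with levels of 2.79 to 5.15. The root initiation gene rtcs1 was well above background on 14 of the 18 arrays, with levels of −7.10 to −3.26, and the 4 exceptions were all Lo5 arrays. By an index over 2366 probes that separated the lines at 0 d by at least 3 on the log2 scale, from 0 for T250 to 1 for Lo5, 8 of the Lo5 arrays lay between 0.933 and 1.03. The T250 arrays ran from −0.028 to 0.143. Replicate 3 of Lo5 at 1 d, with 0.0951, stood in the range of T250 and against its label. Its label was not changed, and values at 1 d in Lo5 that moved clearly or changed a call without it are given both ways.

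Of the 90 member spots, 89 were well above background and 18 carried a mark, 9 of them on the EF-hand transcript GRMZM2G426046 and 6 on the CAMTA transcript. All 5 members passed the filter of the fit. The named values below hold for 1 probe per transcript, designed on the annotation of the line B73. A difference in level between the lines and a difference in how well a probe matches each line's own sequence cannot be told apart.

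**Figure D1:**
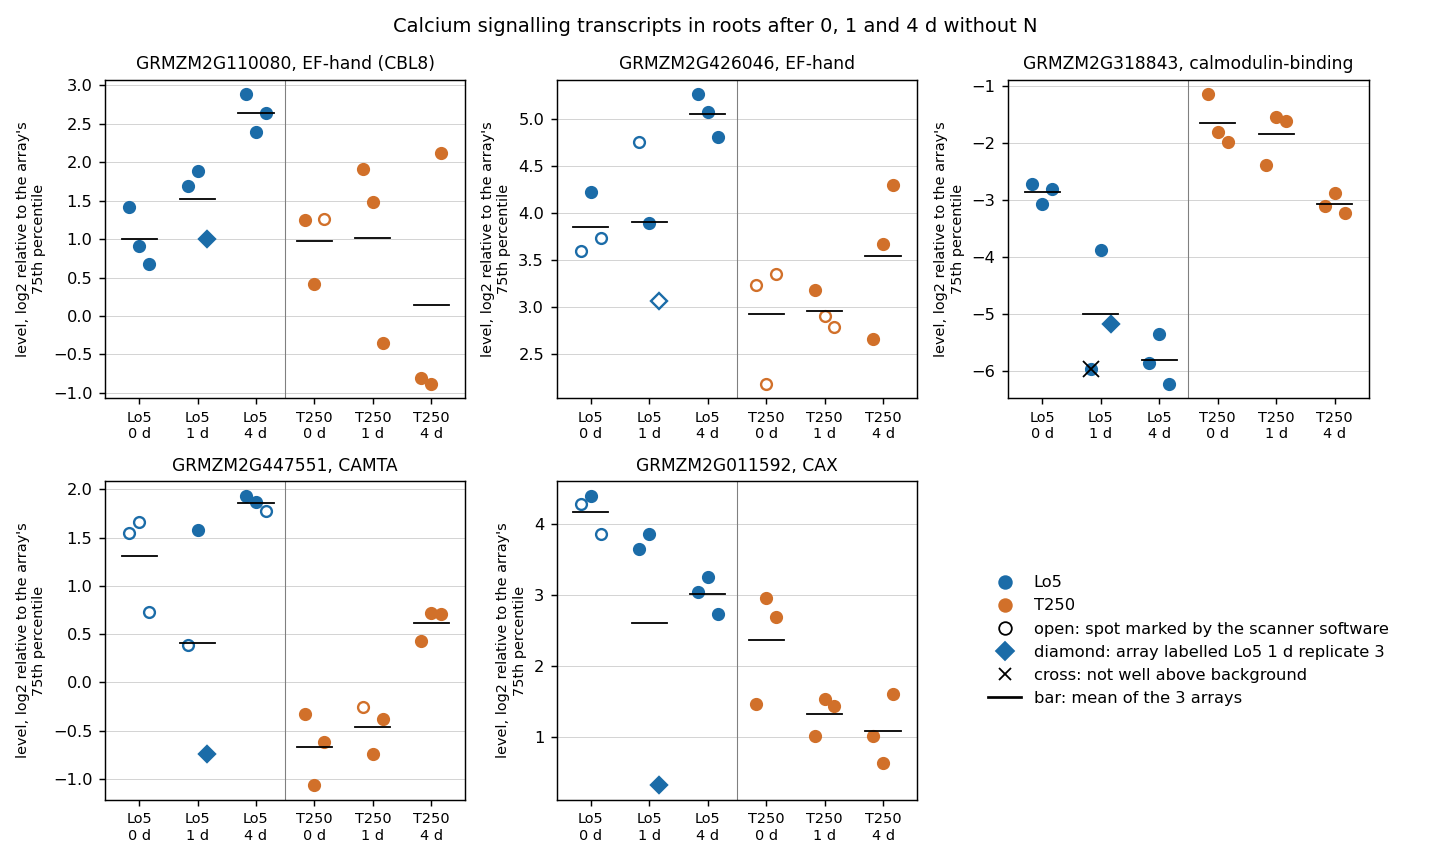
Level of each member on each array, as log2 relative to the array's 75th percentile (y axis), by days without N for Lo5 and T250 (x axis). Each point is 1 array, open for marked spots, a diamond for Lo5 1 d replicate 3 and crossed where not well above background, and the bar is the mean of all 3 arrays, marked spots included. The calmodulin-binding transcript GRMZM2G318843 lay lower in Lo5 than in T250 at every day.

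The EF-hand transcript GRMZM2G110080 carries the name CBL8 in the reference annotation, which makes it a calcium sensor of the CBL family. In Lo5 its levels were 1.42, 0.92 and 0.68 at 0 d, 1.70, 1.88 and 1.00 at 1 d, and 2.89, 2.40 and 2.64 at 4 d. In T250 they were 1.25, 0.42 and 1.26 (marked) at 0 d, 1.92, 1.48 and −0.36 at 1 d, and −0.80, −0.88 and 2.13 at 4 d. All Lo5 arrays of 4 d thus lay above every array of the other groups, while the T250 arrays of 4 d were split, with 2 below all arrays of 0 d and 1 above them. Over 4 d the log2 ratio was 1.64 in Lo5 and −0.69 in T250. Without T250 4 d replicate 3 the T250 value was −1.68.

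A second probe, GRMZM2G137751_T01, belongs to the same CBL8 gene in the reference and shows how far the pattern depends on a single probe. Its levels followed those of GRMZM2G110080 with a Pearson r of 0.983 over the 17 arrays with unmarked spots, a description over arrays that share lines and slides. The Lo5 arrays of 4 d had 2.66, 1.89 and 2.27, against 1.23, 0.75 and 0.49 at 0 d. In T250 the levels were −0.85, −0.81 and 1.82 at 4 d, against 0.92, 0.38 and 1.35 at 0 d. Both probes therefore had their high level on the same T250 array of 4 d. GRMZM2G137751 had log2 ratios of 1.45 in Lo5 and −0.83 in T250 over 4 d, and it was itself on the study's 4 d list.

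**Figure D2:**
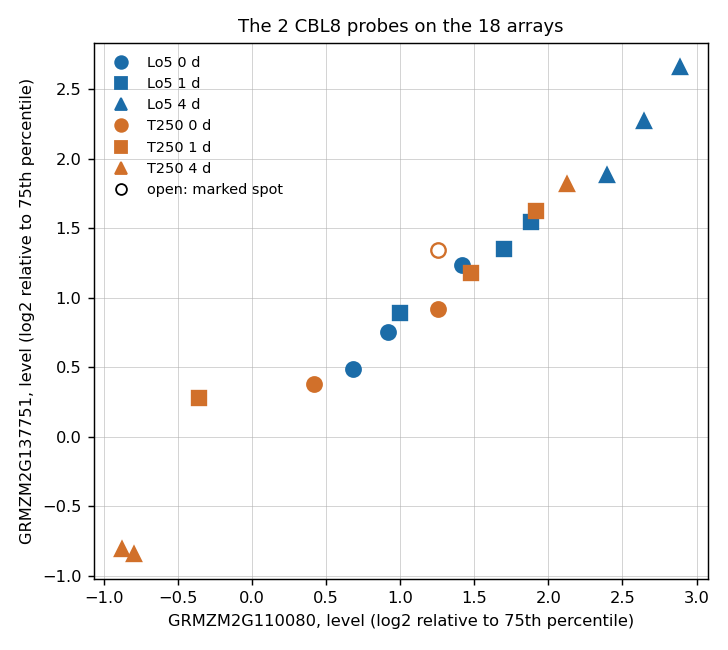
Levels of the 2 probes of the CBL8 gene against each other, GRMZM2G110080 on the x axis and GRMZM2G137751 on the y axis, both log2 relative to the array's 75th percentile, 1 point per array, coloured by line and shaped by day. The T250 arrays of 4 d fall into 2 low points and 1 high point on both probes.

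The remaining EF-hand transcript, GRMZM2G426046, has no gene name in the reference. Its Lo5 levels were 3.60 (marked), 4.22 and 3.73 (marked) at 0 d, 4.75 (marked), 3.89 and 3.07 (marked) at 1 d, and 5.27, 5.08 and 4.81 at 4 d. In T250 they were 3.23, 2.18 and 3.35 (all marked) at 0 d, 3.18, 2.91 (marked) and 2.79 (marked) at 1 d, and 2.66, 3.67 and 4.30 at 4 d. The Lo5 arrays of 4 d were again above all others, and the T250 arrays of 4 d overlapped those of 0 d. With the marked spots left out, the log2 ratio over 4 d in Lo5 was 0.83 and rests on 1 spot at 0 d. With them kept it was 1.20 in Lo5 and 0.62 in T250.

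The calmodulin-binding transcript GRMZM2G318843 had the lowest level of its own probe in Lo5 at 4 d. Lo5 levels were −2.72, −3.07 and −2.80 at 0 d, −5.97 (not well above background), −3.88 and −5.17 at 1 d, and −5.86, −5.35 and −6.22 at 4 d. T250 levels were −1.14, −1.80 and −1.98 at 0 d, −2.38, −1.55 and −1.62 at 1 d, and −3.10, −2.88 and −3.23 at 4 d. In both lines the 4 d arrays lay below all 0 d arrays. The log2 ratio over 4 d was −2.95 in Lo5 and −1.43 in T250. In Lo5 the arrays of 1 d already lay below those of 0 d, and in T250 they overlapped them.

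The CAMTA transcript GRMZM2G447551 had Lo5 levels of 1.55, 1.67 and 0.73 (all marked) at 0 d, 0.38 (marked), 1.58 and −0.75 at 1 d, and 1.93, 1.87 and 1.77 (marked) at 4 d. T250 levels were −0.33, −1.07 and −0.62 at 0 d, −0.25 (marked), −0.75 and −0.38 at 1 d, and 0.42, 0.72 and 0.71 at 4 d. The T250 arrays of 4 d lay above all T250 arrays of 0 d and 1 d, with a log2 ratio of 1.29 over 4 d. For Lo5 a ratio over 4 d exists only with the marked spots kept, and was then 0.54. The level of −0.75 in Lo5 at 1 d came from replicate 3, the array with the T250-like index.

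The exchanger transcript GRMZM2G011592, a cation exchanger of the CAX type by its annotation, had its highest levels in Lo5 at 0 d. Lo5 levels were 4.29 (marked), 4.40 and 3.86 (marked) at 0 d, 3.65, 3.87 and 0.31 at 1 d, and 3.04, 3.26 and 2.74 at 4 d. T250 levels were 1.46, 2.96 and 2.69 at 0 d, 1.00, 1.53 and 1.43 at 1 d, and 1.01, 0.63 and 1.61 at 4 d. At 4 d the Lo5 arrays lay below those of 0 d without overlap, whereas the T250 arrays of 4 d overlapped those of 0 d. The log2 ratio over 4 d was −1.39 in Lo5, where 1 spot at 0 d was unmarked, and −1.29 in T250. The level of 0.31 was again that of Lo5 1 d replicate 3, below every T250 array.

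Across the 6 groups the order of the mean levels differed between the members, marked spots kept. For CBL8 and for GRMZM2G426046, Lo5 at 4 d stood first and apart from the next group, and every group below it overlapped its neighbour in the order. The calmodulin-binding transcript ran from T250 at 0 d, which overlapped T250 at 1 d, down through Lo5 at 0 d and T250 at 4 d, which overlapped each other, to Lo5 at 1 d and 4 d, which also overlapped. For the CAMTA transcript, Lo5 at 4 d and Lo5 at 0 d were first and did not overlap. For the exchanger, Lo5 at 0 d was first and apart from Lo5 at 4 d, the next group by mean. Each following neighbour overlapped the next. Lo5 at 0 d was not apart from Lo5 at 1 d, with 3.86 (marked) on Lo5 0 d replicate 3 and 3.87 on Lo5 1 d replicate 2. The place of Lo5 at 1 d below Lo5 at 4 d rested on Lo5 1 d replicate 3, with 0.31. The remaining Lo5 arrays of 1 d lay above all Lo5 arrays of 4 d.

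The first day without N was compared with 0 d in each line by limma, in one fit of all 6 groups with Benjamini-Hochberg adjustment over all transcripts tested. The 1 d arrays had no part in choosing the members, but the 0 d arrays had, and the shared spread of the fit also drew on the 4 d arrays. These tests are therefore not independent of the choice. Levels at 0 d that favoured a listing would also favour a change in the same direction at 1 d. In Lo5 the calmodulin-binding transcript GRMZM2G318843 was lower at 1 d by a log2 ratio of −2.14 (SE 0.43, a 4.41-fold difference), with an unadjusted p of 0.000197 and an adjusted p of 0.656 in limma. This was past the study's own threshold, which asks for an unadjusted p-value not above 0.01 and a log2 change of 1 or more, and not past the same threshold on the adjusted p-value. These p-values are limma's, and the methods' t-test on the same values was not past the threshold (unadjusted p = 0.0256, adjusted p = 0.999). Without Lo5 1 d replicate 3 the ratio was −2.06 (limma, unadjusted p = 9.96e-04 and adjusted p = 1.00). Of the 4 members tested in Lo5 it was the only one past this threshold in limma, where 0.618% of all 30745 transcripts passed it. The differences within the slides that held both days were −3.25, −0.81 and −2.36. In T250 the same transcript had a log2 ratio of −0.21 (limma, adjusted p = 1.00).

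The Lo5 value at 1 d depended on the setting. With the replicate number as a block over the compared groups alone, limma gave the same −2.14 with an unadjusted p of 0.0188, with normexp background correction the ratio was 0.019, and without Lo5 1 d replicate 2 it was −2.70 (limma, adjusted p = 0.00804). The change in Lo5 minus the change in T250 was −1.94 for this transcript (SE 0.61), and limma's adjusted p for this difference was 0.971.

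Values for the other members at 1 d did not pass either threshold. CBL8 had log2 ratios of 0.52 (SE 0.72) in Lo5, which was 0.79 without replicate 3, and 0.18 (SE 0.81) in T250. The exchanger had −1.79 (SE 1.07) in Lo5, which was −0.64 without replicate 3, and −1.05 (SE 0.75) in T250. The CAMTA transcript had 0.11 (SE 0.57) in T250 and, with marked spots kept, −0.91 in Lo5. Its Lo5 differences within the slides were −1.17, −0.09 and −1.47, the last on replicate 3. For GRMZM2G426046 the Lo5 ratio was −0.33 (SE 0.78) from 1 spot at each day, and 0.053 with the marked spots kept, when T250 had 0.035. With these spots its Lo5 differences within the slides were 1.16, −0.33 and −0.67, the last on replicate 3. None of the 4 members tested in T250 was past the study's threshold in limma, or under 0.05 before adjustment, where 1.38% of the 30099 transcripts tested passed the threshold. The methods' t-test also gave none.

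The lines were compared with each other at each day on the same fit, as Lo5 minus T250, with a call at an adjusted p of up to 0.05 and a log2 difference of at least 1. At 1 d, on arrays that had no part in the choice, the calmodulin-binding transcript was lower in Lo5 than in T250 by a log2 difference of −3.16 (SE 0.43, 8.93-fold, limma adjusted p = 9.03e-04). The SE and p-value rest on a spread shared by all groups, which includes the 0 d and 4 d arrays that chose the members. This transcript was the only one of the 5 members called, against 4.24% of all 30522 transcripts. Without Lo5 1 d replicate 3 the difference was −3.08 (limma, adjusted p = 5.13e-04), and within the slide that held both lines it was −3.59. The call was lost with limma on the compared groups alone (adjusted p = 0.103), with the methods' t-test (adjusted p = 0.328 after Benjamini-Hochberg) and with normexp, where the difference was −0.74.

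For the exchanger and the CAMTA transcript the line difference at 1 d turned on Lo5 1 d replicate 3. The exchanger was higher in Lo5 by 1.29 with all arrays (limma, adjusted p = 0.380) and by 2.44 without that array (limma, adjusted p = 0.00169). The CAMTA transcript had a difference of 0.98 with all arrays (limma, adjusted p = 0.437) and of 2.14 without it (limma, adjusted p = 0.00459). Without Lo5 1 d replicate 2 instead, the CAMTA difference was −0.18. With any single T250 array left out, neither transcript was called. Without Lo5 1 d replicate 3, 2 members were called higher and 1 lower in Lo5 at 1 d. Calls over all transcripts rose as well, from 545 higher and 748 lower of 30522 to 2271 higher and 2800 lower of 30154.

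At 0 d the line differences are given as a description, with no test, because the 0 d arrays had a part in choosing the members. The calmodulin-binding transcript was lower in Lo5 than in T250 by −1.22, and CBL8 differed by 0.17. The exchanger was higher in Lo5 by 2.03, on 1 Lo5 spot. With the marked spots kept, the CAMTA transcript was higher in Lo5 by 1.99 and GRMZM2G426046 by 0.93. At 1 d, on levels that had no part in the choice but with the spread shared by all groups, CBL8 differed by 0.51 (limma, adjusted p = 0.761). Without Lo5 1 d replicate 3 it differed by 0.78.

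At 4 d the arrays chose the members, so the line differences there are a description, with no test. CBL8 was higher in Lo5 by 2.49, or by 3.48 without T250 4 d replicate 3. The exchanger was higher by 1.93, GRMZM2G426046 by 1.51 and the CAMTA transcript by 1.28. The calmodulin-binding transcript was lower in Lo5 by a log2 difference of −2.74. Of all 30944 transcripts, 20.0% were called between the lines at 4 d, and nothing is read from the members' values beside it.

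Another 10 transcripts of calcium signalling stand on the study's 4 d lists, which makes 15 with the members. These lists were drawn up on the same arrays by the study's threshold, so they are no independent evidence of a direction or a count at 4 d. That more of the list than of all transcripts was past the threshold at 4 d was set by this choice. The 4 d counts and medians include the members and are a description. Of the 14 tested in Lo5 over 4 d, 1 was up and 2 were down past the study's threshold in limma, where 1.68% of all transcripts were past it. In T250 the counts were 1 up and 3 down of 14, where 3.89% of all were. The median log2 ratio of the list was 0.95 in Lo5 and −0.12 in T250, beside −0.10 and −0.05 over all transcripts. At 1 d the only one past the threshold in limma in either line was the member GRMZM2G318843 in Lo5. The list medians at 1 d were −0.26 in Lo5 and 0.13 in T250, beside −0.04 and 0.01 over all. Without Lo5 1 d replicate 3 the list median in Lo5 at 1 d was −0.059, beside 0.006 over all.

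**Figure D3:**
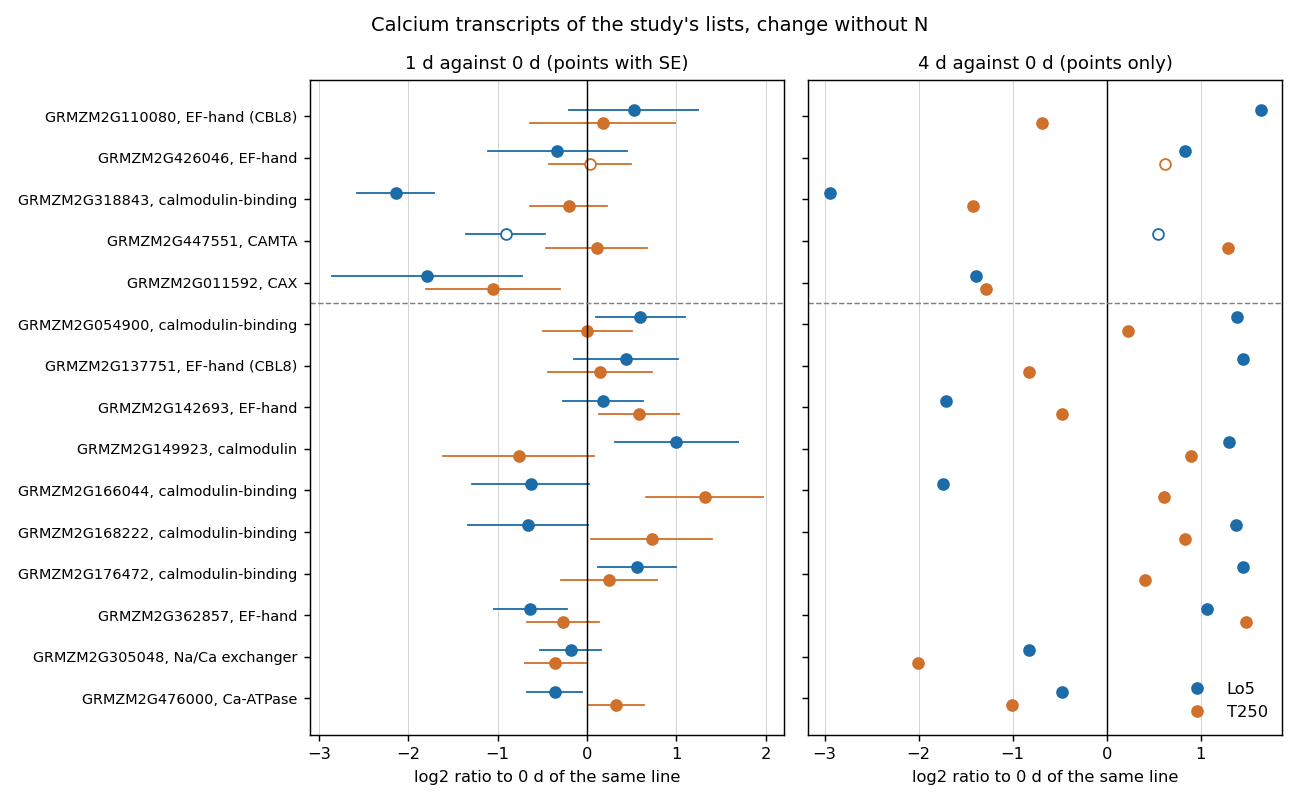
Log2 ratio to 0 d of the same line (x axis) for the 15 calcium transcripts of the study's lists (rows), at 1 d and at 4 d, for Lo5 and T250. SE bars are drawn at 1 d only, and open points are values with the marked spots kept. The members stand above the dashed line. At 1 d the value of −2.14 for GRMZM2G318843 in Lo5 is the one past the study's threshold in limma, though not in the methods' t-test. The 4 d values are a description.

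Among EF-hand transcripts of that list, GRMZM2G142693 had −6.63, −5.96 and −6.39 in Lo5 at 4 d, against −4.77, −4.80 and −4.30 at 0 d, a log2 ratio of −1.71. In T250 its ratio was −0.47. GRMZM2G362857 had ratios of 1.06 in Lo5 and 1.48 in T250, without overlap of the 4 d and 0 d arrays in either line. EF-hand transcripts of the study's lists thus had ratios of both signs in Lo5 over 4 d.

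Among binding partners of calmodulin, GRMZM2G176472 had 1.79, 2.00 and 1.80 in Lo5 at 4 d, against 0.49, 0.59 and 0.17 at 0 d, a log2 ratio of 1.45. Its ratio in T250 was 0.41, with overlapping arrays. GRMZM2G166044, annotated as related to plant calmodulin-binding proteins, was not well above background on any Lo5 array of 4 d. Its Lo5 level there was at least 1.80-fold lower than at 0 d, a bound from the dimmest probes well above background on each array. At 1 d it was lower in Lo5 than in T250 by −2.90 (SE 0.65, limma adjusted p = 0.0242), and by −2.66 without Lo5 1 d replicate 3 (limma, adjusted p = 0.0216). On 2 of the 3 Lo5 arrays it was not well above background, so the difference rests in part on background signal. It was the only other transcript of the list called between the lines at 1 d. Without Lo5 1 d replicate 1, T250 1 d replicate 1 or T250 1 d replicate 3 it was not called.

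The other calcium transporters of these lists were both listed for T250. GRMZM2G305048, of the sodium/calcium exchanger family with an EF hand, had −3.36, −2.72 and −2.84 in T250 at 4 d, against −0.23, −1.19 and −1.47 at 0 d, a log2 ratio of −2.01. Its Lo5 ratio was −0.83. GRMZM2G476000, annotated after the Arabidopsis calcium pump ACA11, had −2.23, −2.17 and −2.29 in T250 at 4 d, against −1.05, −1.42 and −1.19 at 0 d, a ratio of −1.01, with −0.47 in Lo5. The exchanger gene that the reference names cax1 (GRMZM5G809587) had levels of 1.66 to 2.84 in Lo5 and 1.88 to 2.71 in T250 over all days, and no comparison called it.

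A broader list was taken from the names in the reference annotation, with 35 transcripts of calmodulins, CBL sensors, CIPK kinases, calcium-dependent kinases, annexins, 1 calmodulin-binding IQD protein and cax1, of which 3 are also on the study's lists. Over time in either line none of these passed the study's threshold in limma, of 31 and 30 tested in Lo5 at 1 d and 4 d and of 27 tested in T250 at each day. Before adjustment, 0, 4, 0 and 3 of them were under 0.05 in limma, and the methods' t-test placed 0, 3, 0 and 0 past the study's threshold. The study chose its own lists with such a t-test on these arrays. Through the 3 transcripts on both lists, the 3 in Lo5 at 4 d are open to that choice, and nothing is read from them. The median log2 ratio of the list lay between −0.08 and 0.08 in these 4 comparisons.

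Between the lines this list held calls at every day. At 0 d, 2 transcripts were higher and 2 lower in Lo5 of 27 tested, and at 1 d 3 were higher and 2 lower of 28. At 4 d, 4 were higher and 3 lower of 29, the CBL8 probes among them. The study chose the CBL8 probes on the 4 d arrays, so their calls at 4 d were favoured by the choice. Over all transcripts 13.8% of the 30126 tested were called between the lines at 0 d, 4.24% at 1 d and 20.0% at 4 d. These shares depended on Lo5 1 d replicate 3, most of all at 1 d. Without that array 2271 of all 30154 transcripts were higher and 2800 lower at 1 d, while the list had 3 higher and 2 lower of 26. At 0 d 2541 of all 30235 were then higher and 2831 lower, and the list had 3 higher and 3 lower of 27. At 4 d 3341 of all 31053 were higher and 3667 lower, and the list had 4 higher and 4 lower of 29. With all arrays the medians of the list were 0.05, 0.13 and 0.09, beside 0.02, −0.06 and −0.03 over all transcripts. At 1 d none of the 5 was called by limma on the compared groups alone, nor by the methods' t-test.

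**Figure D4:**
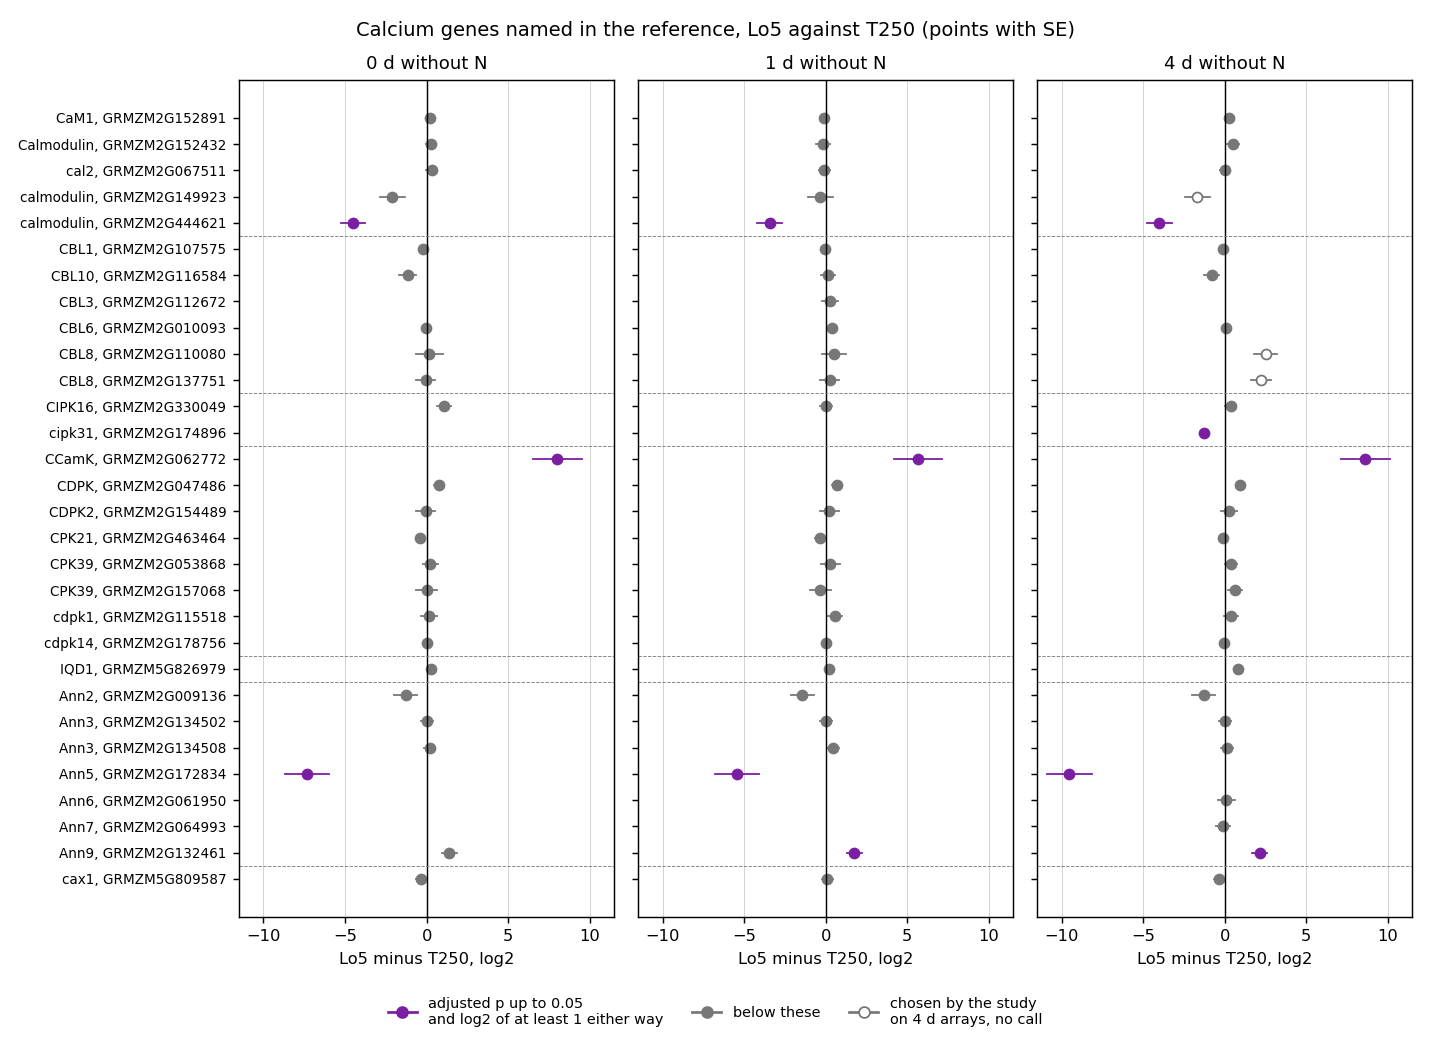
Difference between the lines, Lo5 minus T250 on the log2 scale with SE (x axis), for the calcium genes named in the reference (rows, grouped by family, 1 gene not drawn) at 0, 1 and 4 d without N. Filled purple points are called, grey points are not, and open points were chosen by the study on the 4 d arrays. CCamK lies far to the Lo5 side and Ann5 far to the T250 side at each day.

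CCamK (GRMZM2G062772), the calcium- and calmodulin-dependent kinase that legumes need for root symbiosis, differed most to the Lo5 side. Its Lo5 levels were −0.28, −0.44 and −0.90 at 0 d, −0.45, −0.29 and −8.66 at 1 d, and 0.02, 0.09 and −0.07 at 4 d, whereas no T250 array was well above background. The level of −8.66 was on Lo5 1 d replicate 3, was not well above background and lay among the T250 levels. The Lo5 mean was at least 59.7-fold higher at 0 d, 11.7-fold at 1 d and 96.6-fold at 4 d, as bounds (limma, adjusted p = 0.00437, 0.0482 and 0.00161). Without Lo5 1 d replicate 3 the bound at 1 d was 79.2-fold (limma, adjusted p = 4.65e-09).

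Ann5 (GRMZM2G172834), one of the annexins, which bind membranes in the presence of calcium, differed most to the T250 side. Lo5 levels were −3.67, −5.09 and −5.51 at 0 d, −3.17, −6.28 and 2.02 at 1 d, and −6.74 (not well above background), −6.39 and −5.96 at 4 d. T250 levels were 3.0, 1.84 and 2.96 at 0 d, 2.45, 3.23 and 3.26 at 1 d, and 2.66, 3.34 and 3.49 at 4 d. The lines did not overlap at any day, and the Lo5 array nearest to T250 was Lo5 1 d replicate 3, with the 2.02. The differences were −7.35, −5.46 and −9.53 (limma, adjusted p = 0.00417, 0.0386 and 5.70e-04), and −7.70 at 1 d without that array.

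The calmodulin GRMZM2G444621 was lower in Lo5 by −4.51, −3.43 and −4.02 at 0, 1 and 4 d (limma, adjusted p = 0.00325, 0.0228 and 0.00248), and by −4.79 at 1 d without Lo5 1 d replicate 3 (limma, adjusted p = 8.15e-08). Among the other families, the annexin Ann9 (GRMZM2G132461) was higher in Lo5 by 1.75 at 1 d and 2.14 at 4 d (limma, adjusted p = 0.0434 and 0.00424). The kinase cipk31 (GRMZM2G174896) was lower by −1.26 at 4 d (limma, adjusted p = 0.00978).

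The transcripts whose levels ran most like those of each member were found by Pearson r over the member's unmarked arrays, among probes well above background throughout. For the CBL8 transcript GRMZM2G110080 these were the second CBL8 probe, then GRMZM2G048154 (r = 0.937) and GRMZM2G032551 (r = 0.935), over 17 arrays. For the calmodulin-binding transcript they were GRMZM2G092427 (r = 0.866), GRMZM2G406014 (r = 0.853) and GRMZM2G031200 (r = 0.846), over 18 arrays. For the exchanger they were GRMZM2G046244 (r = 0.958), GRMZM2G132324 (r = 0.924) and GRMZM2G108424 (r = 0.914), over 16 arrays. The CAMTA transcript, over 12 arrays, was followed by GRMZM2G014066 (r = 0.979), GRMZM2G437575 (r = 0.974) and GRMZM2G157267 (r = 0.970). For GRMZM2G426046, over 9 arrays, the nearest were AC177897.2_FGT002 (r = 0.989), GRMZM2G466428 (r = 0.986) and GRMZM2G174888 (r = 0.977). These arrays share lines and slides, and the values are a description.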

How the data were processed

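The authors deposited for each array the processed intensity of each spot, as Agilent Feature Extraction 10.5.1.1 wrote it, with its marks. The series table of the authors multiplies these by a single factor for each array. Here log2 of the intensity minus the array's 75th percentile was used, without control and marked spots. A probe was fitted where some group had all 3 of its arrays well above background (31653 probes), with all 6 groups in one limma model, limma 3.58.1 (R 4.3.3, with version 1.17.8 of the data.table package), with Benjamini-Hochberg adjustment within each comparison. With 3 arrays against 3 an exact permutation test cannot go below 0.1, so none was run. The number of arrays limits the precision.

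The members and lists were chosen with earlier results of these data known. Named were the members, the CAX and CAMTA transcripts, up to 3 up and 3 down per comparison among list calls without overlap, and the 3 transcripts most like each member. CCamK at 1 d was named although its arrays overlap, after its values were seen. The reference holds no descriptions, so the calcium list is the study's, and the list by reference names was added after seeing the data. Names come from the reference Zm-B73-REFERENCE-NAM-5.0, matched for 18726 transcripts and 2 members, while the array follows an older B73 annotation, so no positions are given. No sequences were used here. The values of 1 gene of the list by reference names are not reported here, though its calls stay in the counts.

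Arrays of 1 d and 0 d with the same replicate number share a slide (r of the deviations 0.303, 0.144 and 0.101 in Lo5, 0.341, 0.153 and 0.221 in T250). A shared growth experiment and a shared slide cannot be told apart there. The best match of Lo5 1 d replicate 2 was Lo5 0 d replicate 3. For 4 d and 0 d no arrays of the same number share a slide, and r was 0.436, −0.327 and 0.443 in T250 and −0.121 to 0.056 in Lo5. Between the lines r ran from −0.121 to 0.198, though at 1 d each best match had the same number. The main fit used no pairing. Of the 5 slides 1 was scanned on another day. That slide held replicate 1 of 0 d and of 1 d in both lines and no array of 4 d, so scan day was not balanced between 4 d and 0 d. Alternatives were the marked spots kept, quantile normalization, normexp with an offset of 50 (planned on mean signals, run on the median signals), the authors' table, other filters on dim probes, limma on the compared groups alone, replicate or slide blocks, the methods' t-test and leaving out each array.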

Additional observations from a re-analysis of the deposited data

How the results depend on the processing

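Counts past the threshold are given for the study's calcium list, with the main value in brackets, and for the list by reference names where named. With marked spots kept the line comparison at 0 d had 2 (0). Quantile normalization left 2 in T250 at 4 d (4). Normexp, which moved the median of all transcripts by as much as −0.64, left 0 in Lo5 at 1 d (1), 1 at 4 d (3), 1 in T250 at 4 d (4), 0 between the lines at 1 d (2) and 1 at 4 d (6), and for the reference names 0 at 1 d (5) and 4 at 4 d (7). Without a filter on dim probes the reference names had 3 at 1 d (5). With probes well above background on all arrays, Lo5 at 1 d and the lines at 1 d had 0 (1 and 2), and the reference names had 2 at 0 d (4) and 3 at 1 d (5). Limma on the compared groups alone gave 10 in Lo5 at 4 d (3) and 2 and 0 between the lines at 0 d and 1 d (0 and 2), with 3 in Lo5 at 4 d (0) and 0 between the lines at 1 d (5) for the reference names. Over all 30641 transcripts this setting gave 604 up and 569 down in Lo5 at 4 d (243 and 273). Between the lines at 1 d it called 292 of all 30522 (1293), and normexp called 3. The slide as a block left 1 between the lines at 1 d (2), and 0 of the reference names (5). The methods' t-test gave 0 in Lo5 at 1 d (1), 10 at 4 d (3), 1 and 0 between the lines at 0 d and 1 d (0 and 2), with 3 and 0 of the reference names in Lo5 at 4 d and between the lines at 1 d (0 and 5). The study drew up its list with such a t-test on these arrays, so its 10 at 4 d follow from the choice. The 3 reference names in Lo5 at 4 d are open to that choice too, through the transcripts on both lists. The replicate block over all groups gave 1, 3, 0 and 4 calls over time and 0, 2 and 7 between the lines. The replicate block on the compared groups alone, chosen after seeing the data, left 0 in Lo5 at 1 d (1). The replicate block over all groups changed no call of a member.

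Leaving out each array in turn, the study's list had 1 to 1 call in Lo5 at 1 d, 2 to 5 at 4 d, 0 to 1 in T250 at 1 d, 2 to 6 at 4 d, and 0 to 2, 1 to 4 and 3 to 10 between the lines at 0, 1 and 4 d. The reference names had 0 to 1, 0 to 2, 0 to 0, 0 to 1, 3 to 6, 0 to 5 and 5 to 8. Without Lo5 1 d replicate 3 the study's list had 5 in Lo5 and 6 in T250 at 4 d. Calls over all transcripts rose too, to 329 up and 341 down of 30750 in Lo5 and 642 up and 853 down of 30527 in T250.

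Of the members' values, the change at 1 d in Lo5 turned to 0.053 for GRMZM2G426046 with marked spots kept and to 0.019 for GRMZM2G318843 with normexp. The line difference at 1 d turned to −0.028 for GRMZM2G110080 and −0.51 for GRMZM2G426046 with the slide as a block. Leaving out 1 array gave GRMZM2G110080 −0.25 to 0.58 and −0.17 to 0.97 between the lines at 0 d and 1 d and −0.28 to 0.86 in T250 at 1 d. It gave −0.37 to 0.060 for GRMZM2G318843 and −0.088 to 0.30 for GRMZM2G447551 in T250 at 1 d, and −0.18 to 2.14 for GRMZM2G447551 between the lines at 1 d. The causes were not tested. The GRMZM2G318843 probe lay near the background in Lo5 at 1 d and 4 d, where the signal limits its precision, and normexp gave −1.34 for its change over 4 d there.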
